A study of Mus musculus with 27 samples.

Results

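Among the 27 RNA sequencing libraries of this mouse macrophage series, the 9 libraries in the control-medium state were compared here: 6 from cells that had received proton irradiation and 3 from cells that had not. Bone marrow of C57BL/6 femur and tibia was given 5 Gy of FLASH or standard protons, or no irradiation, and was then grown with mouse CSF-1 (10 ng/ml) for 7 days into macrophages. Cultures were next kept for 2 days in control medium (M0), in LPS (100 ng/ml, M1) or in IL-4 (20 ng/ml, M2), and the labels give 3 libraries to each of the 9 groups. FLASH delivers a dose at a far higher rate than a standard beam. The irradiation thus fell on mixed marrow cells before macrophages had formed, and the RNA describes whatever those cultures held after the days in CSF-1 and control medium.

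The state of an irradiated library was taken from measured values and not from its label: LPS where Irg1 (the itaconate enzyme induced by LPS) reached 500 CPM, IL-4 where Arg1 (arginase 1, induced by IL-4) reached 100 CPM, and control otherwise. CPM, read counts relative to library depth, were scaled further by the authors (TMM) so that libraries can be set side by side. This rule was used because 5 of the 18 irradiated libraries, all numbered replicate 1, had levels that went against their labels, while 0 of the 9 non-irradiated libraries did. The 6 irradiated members are FLASH M0 replicates 2 and 3, standard M0 replicates 1, 2 and 3, and the library labelled FLASH M1 replicate 1, which by its label had been given LPS. Its Irg1 was 14.9 CPM and its Arg1 4.64 CPM. The library labelled FLASH M0 replicate 1 was left out, with Arg1 at 655 CPM and Irg1 at 11.9 CPM. No irradiated library lay near a threshold: Irg1 was 1282 to 1715 CPM on the LPS side and 10.5 to 30.9 CPM elsewhere, and Arg1 was 631 to 1057 CPM on the IL-4 side and 4.64 to 11.1 CPM in the control state. In the 3 non-irradiated M0 libraries Irg1 was 20.4 to 38.9 CPM and Arg1 5.83 to 9.54 CPM. The members were chosen by these 2 genes, which are given with no test, and the genes that respond to LPS or IL-4 depend on that choice too.

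**Figure D1:**
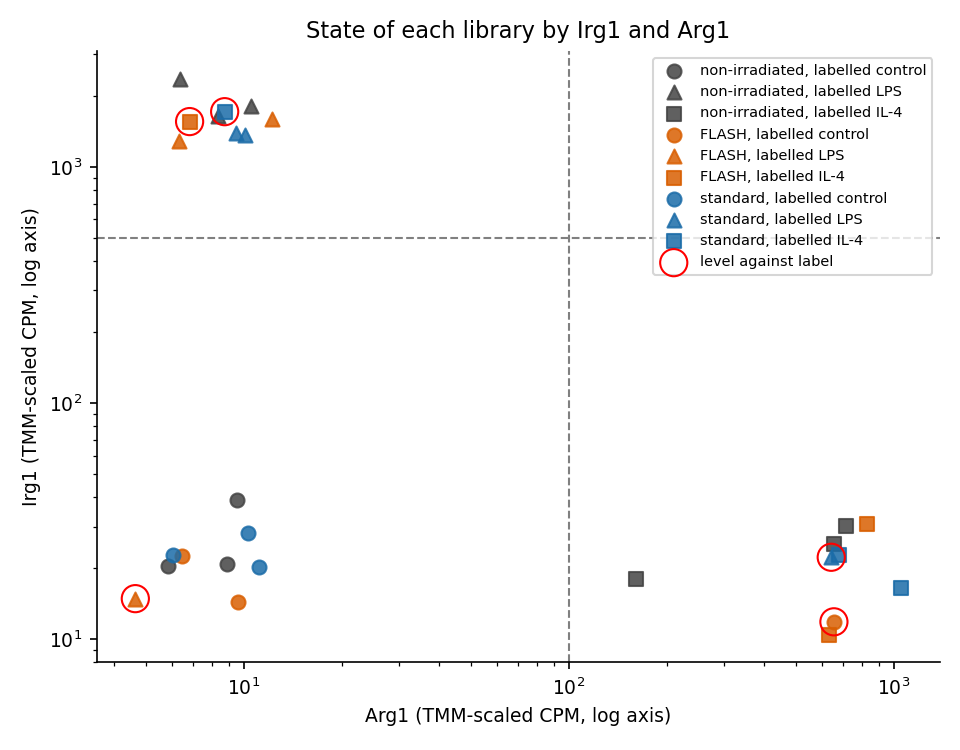
Irg1 against Arg1 in all 27 libraries (TMM-scaled CPM, both axes logarithmic), with color for the irradiation, marker shape for the labelled state and dashed lines at the thresholds of 500 and 100 CPM. Red rings mark the 5 irradiated libraries whose levels go against their labels; the 6 irradiated control-state libraries lie at the lower left with the 3 non-irradiated M0 libraries.

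Macrophages grown in CSF-1 arise from progenitors that divide, pass through a monocyte stage and then slow their division as they mature. Ionizing radiation breaks DNA and stabilizes the transcription factor p53, which switches on genes for cell cycle arrest, for its own feedback control and for cell death. MHC class II molecules, by which macrophages and dendritic cells present peptides to T cells, are made under the master regulator Ciita, and granulocyte, B cell and dendritic cell precursors of the marrow carry marker genes of their own.

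The steps between low values put the depth of the 9 libraries at about 20.7 to 25 M reads. The 10 most abundant genes took 15.8% to 16.9% of the irradiated libraries and 12.9% to 13.4% of the non-irradiated ones, and 11643 to 12099 genes reached 1 CPM. The part of this difference in the results was not tested. Macrophage identity was checked with 7 markers, which summed to 16033 to 20275 CPM without and 17681 to 26158 CPM with irradiation. Of these 2 rose (Mertk and Lyz2), 2 fell (Csf1r and Fcgr1) and 3 did not pass the test (Cd68, Emr1 and Itgam). Csf1r kept its call whichever library was left out. Mertk lost it without non-irradiated M0 replicate 1 or 3 (adjusted p up to 0.0706), Fcgr1 in 6 of the 9 fits (up to 0.146) and Lyz2 in 7 (up to 0.171). T and NK cell markers (Cd3e, Cd3d, Nkg7, Gzmb) and mast cell and basophil markers (Cpa3, Mcpt8, Fcer1a, Ms4a2) were too low to be tested. Cd68, a lysosomal membrane protein of macrophages, measured 1068, 907 and 1115 CPM without irradiation and 1076 to 1211 CPM with it (log2 fold change 0.15, adjusted p = 0.291). Emr1, the F4/80 antigen, measured 1467, 2653 and 1474 CPM against 1318 to 1976 CPM (log2 -0.20, adjusted p = 0.564). The CSF-1 receptor Csf1r, by contrast, was 2183, 2177 and 2257 CPM in non-irradiated and 1018 to 1604 CPM in irradiated libraries, which did not overlap, and fell by 0.82 on the log2 scale (adjusted p = 0.00558).

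The first comparison asks what irradiation of the marrow left behind in macrophages that saw neither LPS nor IL-4. Of 12444 genes tested, 1686 (13.5%) passed an adjusted p of 0.05 in limma: 716 rose (5.75%) and 970 fell (7.79%). These shares of all tested genes are to be set beside each list count below. The falls were the deeper changes. At least 2-fold changes were found in 394 genes that fell and 106 that rose, and at least 4-fold changes in 84 and 6. By at least 8-fold, 24 genes fell and 0 rose. The median log2 fold change over all tested genes was 0.0017. Irradiated and non-irradiated libraries did not overlap in 1128 genes that were higher (9.06%) and 1214 that were lower (9.76%) after irradiation. Fold changes here are differences of log2(CPM + 0.5), which understates the change of genes near 0. The sample titles carry a code that all libraries of 1 replicate number share, and the 5 libraries at odds with their labels carry the same code; its meaning is not given. Whether replicates are separate cultures, animals or only libraries is not stated either, and the p-values weigh changes against a between-library spread that may be technical.

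Genes controlled by p53 were led by Phlda3 and Cdkn1a, both named as irradiation markers with earlier results of these data known. Phlda3, which blocks Akt signaling at the membrane, was at 34.4, 26.6 and 38 CPM in the 3 non-irradiated libraries, at 156, 159 and 165 CPM after FLASH and at 162, 159 and 182 CPM after standard irradiation. The groups lay far apart, and the first of the FLASH values belongs to the library labelled FLASH M1 replicate 1. The rise was log2 2.31 ± 0.11 (SE; adjusted p = 5.34e-06). Cdkn1a, the p21 inhibitor of cyclin-dependent kinases, was at 199, 212 and 168 CPM without irradiation, 478, 550.2 and 572 CPM after FLASH and 507, 592 and 652 CPM after standard irradiation. Every irradiated library was above every non-irradiated one, with a rise of log2 1.53 ± 0.11 (adjusted p = 6.04e-05).

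Of the 21 tested genes for p53-controlled arrest and feedback 8 rose and 1 fell, with a median log2 fold change of 0.55. Mdm2, which marks p53 for degradation, measured 127, 61.5 and 93.8 CPM without and 163 to 209 CPM with irradiation (log2 1.03 ± 0.19, adjusted p = 0.00859). The non-irradiated libraries differed among themselves more in this gene than in Cdkn1a, and the groups still did not overlap. Ccng1, a cyclin that recruits a phosphatase to Mdm2, rose from 218, 201 and 201 CPM to 319.7 to 394 CPM (log2 0.83, adjusted p = 0.000373). Zmat3, an RNA-binding p53 target, rose from 23.8 ± 0.629 to 53.4 ± 8.7 CPM (SD, n = 3 and 6; log2 1.13). Btg2, an antiproliferative gene also under p53, went the other way, from 30.2, 42.4 and 40.0 CPM to 14.6 to 25 CPM (log2 -0.91, adjusted p = 0.0097). In the cell death and repair branch 3 of 24 tested genes rose and 2 fell (median log2 0.19). Over all tested genes 5.75% rose and 7.79% fell, so the share that fell was near that of all genes. Bax, which opens the outer mitochondrial membrane, measured 86, 67.7 and 84.3 CPM and 73.9 to 87.8 CPM, which overlapped (log2 0.04, adjusted p = 0.834). The transcript of p53 itself, Trp53, fell from 56.2 ± 2.56 to 44.9 ± 4.6 CPM (log2 -0.33, adjusted p = 0.0236). That call was lost without non-irradiated M0 replicate 1 or replicate 3, where the adjusted p reached 0.101. Dram1, an autophagy gene under p53, fell by 0.64 on the log2 scale.

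The 250 bases before a RefSeq start of Cdkn1a and of Ccng1 are printed. Both genes carry the p53 decamer, the repeated unit of the p53 response element, in that window. They come from RefSeq on GRCm38.p6, Cdkn1a from chr17:29090729-29090978 on the plus strand and Ccng1 from chr11:40755287-40755536 on the minus strand, 5′ to 3′, with the decamer in capitals.
Cdkn1a: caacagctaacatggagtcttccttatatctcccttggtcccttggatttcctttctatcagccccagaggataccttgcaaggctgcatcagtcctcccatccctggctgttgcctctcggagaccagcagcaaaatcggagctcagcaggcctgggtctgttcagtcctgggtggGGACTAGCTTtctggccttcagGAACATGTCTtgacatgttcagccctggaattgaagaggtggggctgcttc
Ccng1: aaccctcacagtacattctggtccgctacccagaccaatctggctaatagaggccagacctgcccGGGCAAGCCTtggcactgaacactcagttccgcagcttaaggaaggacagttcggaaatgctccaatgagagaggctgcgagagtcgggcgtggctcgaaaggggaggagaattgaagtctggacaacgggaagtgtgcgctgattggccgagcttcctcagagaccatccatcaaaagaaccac
Cdkn1a held 2 such decamers and Ccng1 held 1. The decamer was found in 8 of 19 genes of arrest and feedback that have an entry and in 5 of 17 of the death and repair genes. Among all 27025 genes with a RefSeq promoter entry, tested here or not, 8.20% held it. The same letters were not in the Phlda3 window. A match describes letters, not binding, and says nothing of the factor.

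**Figure D2:**
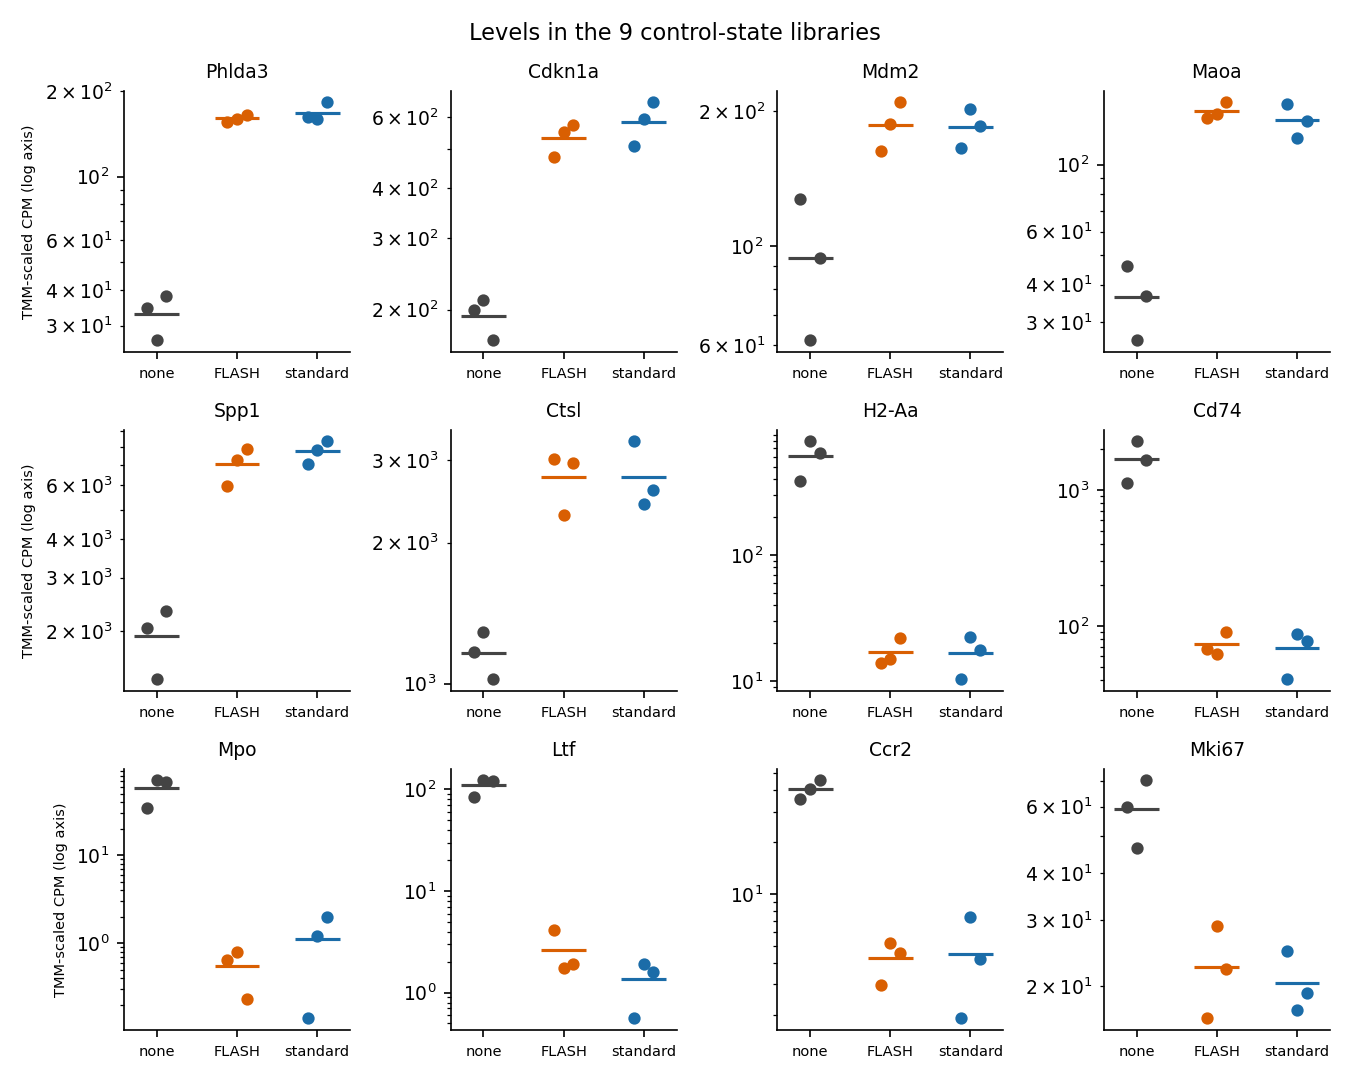
Levels of 12 genes in each of the 9 control-state libraries (TMM-scaled CPM, logarithmic axis), by irradiation (none, FLASH, standard; 3 points each, with a bar at the mean). In each of the 12 genes all 6 irradiated points lie to one side of the 3 non-irradiated points, above for Phlda3, Cdkn1a, Mdm2, Maoa, Spp1 and Ctsl and below for the rest.

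Most tested MHC class II genes fell, several of them deeply. H2-Aa, the alpha chain of the class II molecule I-A, was at 387, 795 and 637 CPM in non-irradiated libraries, at 13.9, 15 and 22 CPM after FLASH and at 10.4, 22.2 and 17.7 CPM after standard irradiation. The highest irradiated library thus lay far below the lowest non-irradiated one, and the fall was log2 -5.11 ± 0.29 (adjusted p = 6.04e-05). Its partner chain H2-Ab1 went from 389, 917 and 616 CPM to 12.1 to 31.7 CPM (log2 -4.85 ± 0.36, adjusted p = 0.000289). The invariant chain Cd74, which guides class II molecules to the endosome, went from 1125, 2273 and 1651 CPM to 40.6 to 89.7 CPM (log2 -4.55, adjusted p = 9.13e-05). Ciita, the transactivator of the whole group, measured 23.7, 27.4 and 73.1 CPM without and 0.867 to 3.21 CPM with irradiation. The non-irradiated values were spread widely, yet all 3 were above the irradiated ones (log2 -3.98 ± 0.41, adjusted p = 0.000447). The peptide loading gene H2-DMb1 fell less, from 75, 87.2 and 119 CPM to 33.4 to 44 CPM (log2 -1.28). H2-Eb1 was low throughout, at 1.65, 2.5 and 1.83 CPM against 0 in 5 of the 6 irradiated libraries and 0.321 CPM in the other.

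Of the 14 class II genes 11 were tested, 2 of which passed the filter on low values through the non-irradiated libraries alone; 7 fell and 0 rose, with a median log2 fold change of -2.08. Genes that pass through the non-irradiated libraries alone, here and in the lists below, can only come out lower after irradiation. The group's summed level was 2035 to 4142 CPM without irradiation and 135 to 213 CPM with it. Class I genes, which present peptides on nearly all cells, gave 0 calls in limma among 22 tested (median log2 -0.19), with 6 at an unadjusted p under 0.05. The lowest p among them was that of the immunoproteasome subunit Psmb9 (log2 -0.54, adjusted p = 0.0613). In bulk RNA, fewer cells of a type and less RNA per cell cannot be told apart. Markers of other cells that carry class II genes moved in the same direction. Of 4 B lineage markers 3 were tested and 2 fell, with a sum of 108 to 140.1 CPM without and 7.36 to 22.5 CPM with irradiation. Of 4 dendritic cell markers 3 were tested and 2 fell, with a sum of 5.68 to 15 CPM against 0.622 to 2.04 CPM. In the irradiated libraries 2 of the B lineage and 3 of the dendritic cell markers were under 1 CPM throughout, and 1 marker of each set was under 1 CPM in all 9 libraries. Their part in the class II change was not tested.

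The windows of H2-Aa and H2-DMb1 are printed for CCAAT. Every class II gene with a RefSeq entry held it, on either strand, within the 250 bases before a start. H2-Aa is from chr17:34287824-34288073 on the minus strand and H2-DMb1 from chr17:34152941-34153190 on the plus strand (RefSeq, GRCm38.p6), with CCAAT, read on the other strand as ATTGG, in capitals.
H2-Aa: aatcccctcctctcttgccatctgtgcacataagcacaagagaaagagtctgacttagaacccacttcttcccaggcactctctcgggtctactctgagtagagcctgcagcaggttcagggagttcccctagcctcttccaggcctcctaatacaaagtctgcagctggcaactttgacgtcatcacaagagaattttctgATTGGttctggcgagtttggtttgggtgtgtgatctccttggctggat
H2-DMb1: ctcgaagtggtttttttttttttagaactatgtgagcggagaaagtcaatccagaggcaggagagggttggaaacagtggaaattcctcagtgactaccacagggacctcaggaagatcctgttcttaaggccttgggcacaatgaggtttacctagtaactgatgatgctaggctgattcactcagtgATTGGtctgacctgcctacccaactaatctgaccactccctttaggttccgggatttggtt
CCAAT was found in 10 of 10 class II genes and in 37.5% of all 27025 genes. These 5 letters are common, and the class II genes lie close together on chromosome 17 for the most part, so their windows are not independent.

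Many transcripts of granulocyte granules fell, several of them to a few CPM or less. Ngp, a neutrophil granule protein, was at 135, 259 and 249 CPM without irradiation, 8.41, 2.82 and 1.84 CPM after FLASH and 0.560, 4.05 and 2.63 CPM after standard irradiation (log2 -6.02 ± 0.55, adjusted p = 0.000592). The irradiated libraries varied several-fold around a low level and none came near the non-irradiated ones. Ltf, the iron-binding lactoferrin, went from 84.9, 123 and 122 CPM to 0.560 to 4.16 CPM, with a median of 1.83 CPM (log2 -5.58, adjusted p = 1.70e-05). Mpo, the myeloperoxidase of primary granules, went from 34.9, 71.2 and 68 CPM to 0.140 to 2.0 CPM (log2 -5.54, adjusted p = 9.13e-05). The elastase gene Elane (log2 -4.38), the proteinase Prtn3 (-3.96), the antimicrobial peptide Camp (-4.43) and the calcium-binding pair S100a8 (-3.87) and S100a9 (-5.25) fell as well. Elane was 15.5 ± 7.18 CPM without irradiation and at most 0.439 CPM with it. Lcn2, a siderophore-binding granule protein, was spread from 16.9 to 148 CPM without irradiation and from 1.73 to 6.2 CPM with it (log2 -3.96 ± 0.63, adjusted p = 0.00544).

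Of 10 tested primary granule genes 8 fell and 0 rose, and of 19 tested late granule genes 10 fell and 0 rose, with median log2 fold changes of -2.63 and -2.53. The filter was passed through the non-irradiated libraries alone by 6 and 2 of them, which could thus only come out lower after irradiation. The counts and medians rest in part on those genes. The primary granule list members that fell include Cebpe and Igsf6, which do not encode granule proteins and are named for that reason. All 8 neutrophil lineage markers fell, but 3 of them were under 1 CPM in every irradiated library and so could only come out lower. The sum of the 8 went from 516 to 901 CPM without irradiation to 6.90 to 43.8 CPM with it. The whole lists did not drop in this way, and the most abundant member of each did not pass the test. The primary granule list summed to 1569 to 1908 CPM without and 1541 to 1938 CPM with irradiation, and the late granule list to 2252 to 2610 CPM and 1102 to 1984 CPM. The lysosomal membrane protein Cd63 in the first (1378 ± 153 to 1506 ± 123 CPM, log2 0.13) and the phospholipid-binding Anxa1 in the second (1429.9 ± 348 to 1372 ± 320.2 CPM, log2 -0.06) made up much of these sums; both were chosen after their values were seen. Alox12, a lipoxygenase, went from 4.98 ± 0.830 to 0.204 ± 0.197 CPM. It passed the filter through the non-irradiated libraries alone and so could only come out lower. Of 15 tested lipid mediator genes, Alox12 among them, 4 fell and 0 rose.

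Part of the monocyte, B lineage, dendritic cell, megakaryocyte and progenitor genes fell too. Ccr2, the chemokine receptor by which inflammatory monocytes leave the marrow, was at 35.6, 40.5 and 45.5 CPM without irradiation and 1.91 to 7.38 CPM with it, a log2 fold change of -3.16 ± 0.32 (adjusted p = 0.000447). Ly6c2, a surface antigen of the same monocytes whose reads may be shared with the near-identical Ly6c1, went from 11.2, 24.9 and 23.7 CPM to 0.187 to 2.77 CPM (log2 -3.64). Among the 14 monocyte genes, 1 of which passed the filter through the non-irradiated libraries alone, 8 fell and 0 rose (median log2 -1.86). F13a1, a transglutaminase of monocytes, was one of them (log2 -1.95).

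Ighm, the heavy chain of IgM, went from 97.4, 115 and 133 CPM to 5.22 to 19 CPM (log2 -3.36 ± 0.36, adjusted p = 0.000898). The B cell receptor chain Cd79a (-2.62), the surface protein Ms4a1 (-2.39) and the transcription factor Pax5 (-2.31) fell from levels under 5 CPM. In all, 7 of 10 tested B lineage genes fell and 0 rose, of which 4 passed the filter through the non-irradiated libraries alone. Of 14 tested dendritic cell genes, 3 of which passed the filter through the non-irradiated libraries alone, 8 fell and 0 rose, among them the chemokine receptor Ccr7 (log2 -2.87) and the actin bundler Fscn1 (38.5 ± 5.33 to 8.73 ± 6.1 CPM, log2 -2.30).

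The platelet integrin Itga2b went from 13.3 ± 1.58 to 0.989 ± 0.278 CPM (log2 -3.23 ± 0.22, adjusted p = 4.94e-05), and Ppbp, a platelet chemokine, fell by 3.77 on the log2 scale. Of 8 tested erythroid and megakaryocyte genes 3 fell. Of 10 tested stem and progenitor genes, 2 of which passed the filter through the non-irradiated libraries alone, 4 fell, including Myb, a transcription factor of dividing progenitors (log2 -1.63), and Flt3, a receptor of early progenitors and dendritic precursors (log2 -1.40). Neither list had a gene that rose. Of 3 tested mast cell and basophil genes 2 fell. In the T and NK cell list limma called 0 of 3 tested genes, with 0 at an unadjusted p under 0.05, and the median log2 fold change was 0.43.

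**Figure D3:**
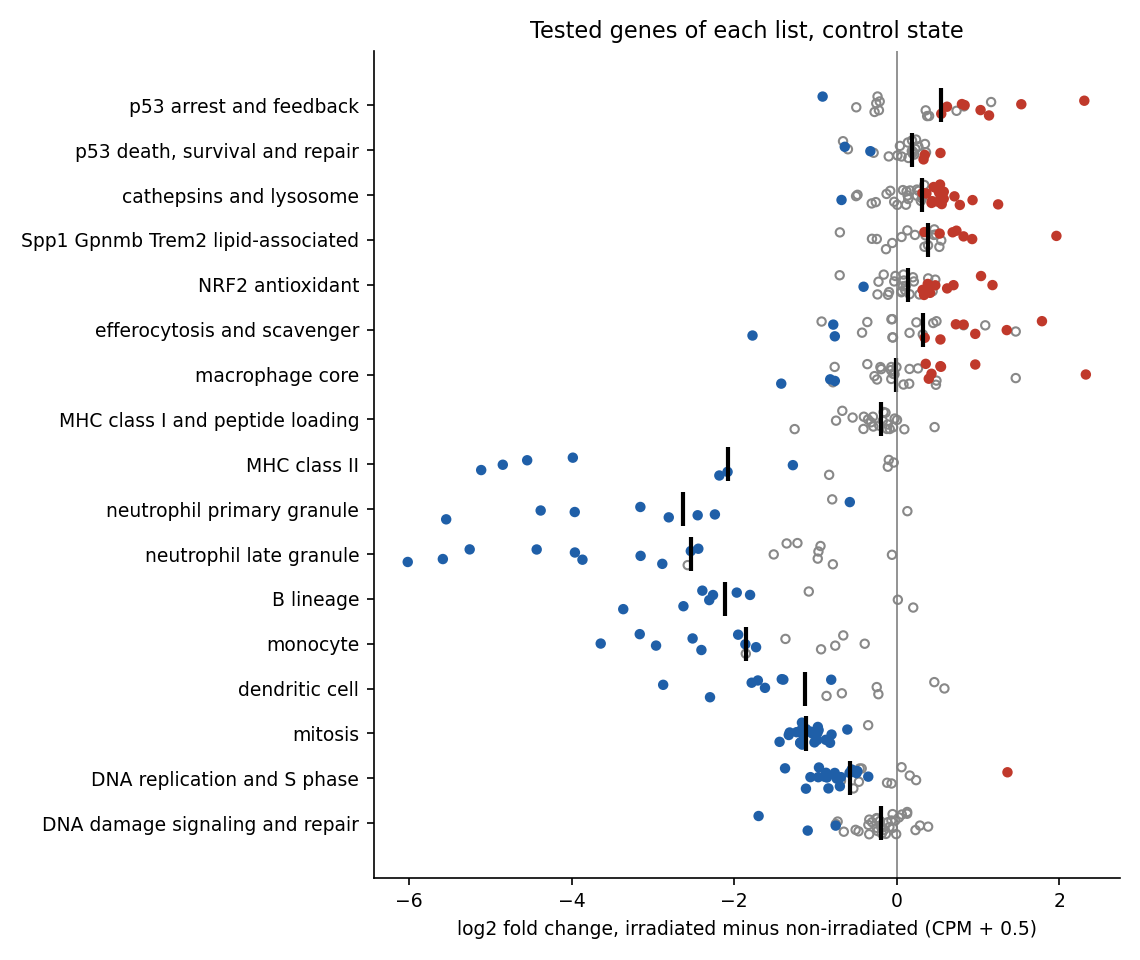
Log2 fold change of every tested gene in 17 gene lists, irradiated minus non-irradiated control-state libraries; red points rose, blue points fell, open points were not called, and a black bar marks the median of each list. Class II, granule, B lineage and monocyte genes reach far to the left, mitosis genes sit together near their median of -1.11, and lysosome genes lie mostly to the right of 0.

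Nearly all tested mitosis genes fell. Of 26 tested 25 fell and 0 rose, with a median log2 fold change of -1.11 and a range of -1.44 to -0.35. Mki67, a protein of dividing nuclei, was at 60.0, 46.5 and 70.4 CPM without irradiation, 16.5, 28.9 and 22.2 CPM after FLASH and 24.9, 17.3 and 19.2 CPM after standard irradiation. The 2 groups did not overlap (log2 -1.44 ± 0.19, adjusted p = 0.00135). The spindle checkpoint kinase Bub1b went from 29.8, 23.7 and 25.9 CPM to 10.7 to 12.5 CPM (log2 -1.17 ± 0.12, adjusted p = 0.000328). Prc1, which bundles microtubules in the dividing cell, went from 33.7 ± 3.55 to 14.8 ± 1.97 CPM (log2 -1.16), and the cyclins Ccnb1 (-1.14) and Ccna2 (-1.17) fell alike. The summed level of the list was 618 to 714 CPM without and 282 to 408 CPM with irradiation.

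Genes of DNA replication followed with smaller steps, 18 of 29 lower and 1 higher (median log2 -0.58). The ribonucleotide reductase subunits Rrm1 (98.1 ± 3.12 to 57.8 ± 5.56 CPM, log2 -0.76) and Rrm2 (47.9 ± 1.25 to 22 ± 3.16 CPM, log2 -1.12), the helicase subunit Mcm3 (-0.74) and the atypical E2F repressor E2f8 (-1.37) fell. The gene that rose was Ccnd1, the cyclin of early cell cycle entry that CSF-1 induces, at 244, 109.6 and 181 CPM without irradiation against 384 to 603 CPM with it (log2 1.36 ± 0.22, adjusted p = 0.00465). Of 36 tested genes of damage signaling and repair 3 fell and 0 rose, and the share that fell was near the 7.79% of all tested genes. The 3 were Fancd2 of the crosslink repair pathway (log2 -1.70), the histone variant H2afx (-1.10) and the recombination factor Rad54l (-0.75). In the fit of all 27 libraries Prc1, Ccna2, Ccnb1, Mcm3, Rrm1 and Rrm2 kept their direction but missed the threshold (adjusted p = 0.0661 to 0.13), while Mki67 (0.0117) and Bub1b (0.0421) passed it. The nuclear lamina gene Lmnb1, whose loss accompanies senescence, fell from 42.8 ± 8.97 to 13.4 ± 2.91 CPM (log2 -1.65), and in the senescence and secretory list 3 of 21 genes rose and 7 fell.

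The windows of Prc1 and Bub1b are shown for the CCAAT letters of cell cycle genes. Prc1 is from chr7:80294201-80294450 and Bub1b from chr2:118597961-118598210, both on the plus strand (RefSeq, GRCm38.p6), with CCAAT on either strand in capitals.
Prc1: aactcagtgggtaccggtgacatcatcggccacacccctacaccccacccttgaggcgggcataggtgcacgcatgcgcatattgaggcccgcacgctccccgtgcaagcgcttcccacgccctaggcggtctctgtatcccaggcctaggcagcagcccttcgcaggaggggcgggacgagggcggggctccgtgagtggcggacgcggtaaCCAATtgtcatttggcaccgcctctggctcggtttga
Bub1b: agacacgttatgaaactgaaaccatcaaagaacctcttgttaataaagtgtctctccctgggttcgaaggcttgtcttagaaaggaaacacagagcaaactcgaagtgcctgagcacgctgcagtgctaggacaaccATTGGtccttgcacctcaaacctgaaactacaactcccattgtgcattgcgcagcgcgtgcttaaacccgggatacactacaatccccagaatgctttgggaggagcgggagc
CCAAT was found in 18 of 21 mitosis genes and 15 of 23 replication genes with an entry, against 37.5% of all genes. TTTGAA, the core of the cell cycle homology element, was found in 8 of 21 mitosis genes and 18.3% of all genes. Both were searched on both strands.

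Many lysosome genes rose by moderate amounts. Of 39 tested 17 rose and 1 fell (median log2 0.31), beside 5.75% and 7.79% of all tested genes, and the summed level went from 78066 to 83831 CPM without irradiation to 101794 to 119302 CPM with it. Ctsl, a lysosomal cysteine protease, was at 1169.8, 1291 and 1021 CPM without irradiation, 3017, 2294 and 2958 CPM after FLASH and 3293, 2421 and 2594 CPM after standard irradiation (log2 1.25 ± 0.13, adjusted p = 0.000377). No irradiated library overlapped the non-irradiated range. The aspartic protease Ctsd rose from 14992 ± 599 to 28630.4 ± 1955 CPM (log2 0.93, adjusted p = 0.000328), Glb1, the lysosomal beta-galactosidase, from 68.2, 71.5 and 71.6 CPM to 108 to 126 CPM (log2 0.77, adjusted p = 0.000196), and the membrane protein Lamp2 by log2 0.51. Ctsc, the protease that activates granule proteases, was the member that fell (log2 -0.68), a call kept in 3 of the 9 fits that left out a library (adjusted p up to 0.0636) and lost without each of FLASH M0 replicate 2, the library labelled FLASH M1 replicate 1, non-irradiated M0 replicate 3 and the 3 standard M0 replicates.

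Glb1 and Ctsd are printed for CACGTG, the letters at the heart of the element that links lysosome genes. Glb1 is from chr9:114400828-114401077 on the plus strand and Ctsd from chr7:142387828-142388077 on the minus strand (RefSeq, GRCm38.p6), with CACGTG, which reads alike on both strands, in capitals.
Glb1: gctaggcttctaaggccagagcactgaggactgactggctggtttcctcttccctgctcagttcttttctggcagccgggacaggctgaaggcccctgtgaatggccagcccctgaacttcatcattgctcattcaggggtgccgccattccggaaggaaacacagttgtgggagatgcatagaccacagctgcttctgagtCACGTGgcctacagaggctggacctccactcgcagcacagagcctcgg
Ctsd: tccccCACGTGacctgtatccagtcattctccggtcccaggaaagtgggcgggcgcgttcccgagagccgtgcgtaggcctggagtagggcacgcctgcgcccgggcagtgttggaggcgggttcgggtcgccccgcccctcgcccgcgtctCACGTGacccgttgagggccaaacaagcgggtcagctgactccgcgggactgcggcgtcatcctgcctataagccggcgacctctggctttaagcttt
CACGTG occurred in 12 of 30 lysosome genes with an entry and in 6.86% of all 27025 genes. The rule for these lists did not use sequence, and a match is a description and not a site.

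Spp1, the secreted phosphoprotein osteopontin, had one of the largest rises, from 2052, 1396 and 2339 CPM to 5959.6, 7272 and 7886 CPM after FLASH and 7044, 7836 and 8349.7 CPM after standard irradiation (log2 1.96 ± 0.16, adjusted p = 9.13e-05). Gpnmb, a glycoprotein of lipid-laden macrophages, rose from 9444 ± 2529 to 17553 ± 1243 CPM (log2 0.93) and the lipid droplet coat Plin2 from 1105 ± 105 to 1835 ± 109 CPM (log2 0.73). Of the 23 genes of that lipid-associated list 7 rose and 0 fell (median log2 0.38). Without the library labelled FLASH M1 replicate 1, 6 rose. In the list for clearance of dead cells and scavenging 7 of 25 genes rose and 3 fell, or 7 and 1 without the same library. The scavenger receptor Msr1 (0.96), the phosphatidylserine receptor Havcr2 (1.35) and the bridging ligand Gas6 (0.73) rose, while the inhibitory Fc receptor Fcgr2b fell from 167, 294 and 209 CPM to 50.2 to 81.4 CPM (log2 -1.77 ± 0.19, adjusted p = 0.000591).

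Of 32 genes under the antioxidant factor NRF2 9 rose and 1 fell (median log2 0.13). Hmox1, which breaks down heme, was at 499, 472 and 529 CPM without irradiation and 857 to 1683 CPM with it (log2 1.18 ± 0.17, adjusted p = 0.00179). The glutathione genes Gclm (log2 0.70) and Gsta3 (1.04) rose. The letters TGACTCA were in 4 of 26 windows of the NRF2 list and in 5.16% of all. Whether they mark an element bound by NRF2 was not tested. The transferrin receptor Tfrc rose from 1187 ± 223 to 2524 ± 441 CPM (log2 1.09).

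The remaining large rises were scattered over functions. Maoa, the mitochondrial monoamine oxidase, was at 46.2, 26.2 and 36.6 CPM without irradiation and 123 to 161 CPM with it (log2 2.02 ± 0.16, adjusted p = 9.13e-05). The serotonin receptor Htr2b rose from 1.65, 0.782 and 1.83 CPM to 4.14 to 9.19 CPM (log2 1.94, adjusted p = 0.00172). They were the 2 of 15 tested amine and neurotransmitter genes that rose, and 0 fell. The neuropeptide Npy rose from 9.17, 9.5 and 14.8 CPM to 39.9 to 49.1 CPM (log2 1.96, adjusted p = 8.14e-05). Dmpk, the myotonic dystrophy kinase, rose from 13.7, 11.6 and 8.79 CPM to 36.5 to 92.7 CPM (log2 2.28), together with Dmwd, its neighbour in the RefSeq gene order (log2 1.91). The fatty acid carrier Fabp7 (log2 1.82) and Lrrc27 (1.60) rose as well. Genes named for the size of their change had to show no overlap between the groups, so their separation is not a further result. Adam8, a surface protease, rose from 867, 904 and 774 CPM to 1758 to 2206 CPM (log2 1.15, adjusted p = 9.13e-05).

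Some rises did not keep their call when a library was left out. Vsig4, a complement receptor of resident macrophages, had the highest fold change among the genes that rose here (log2 2.32, adjusted p = 0.0389), but its non-irradiated values were 2.03, 15.5 and 1.35 CPM against 16 to 23.5 CPM, and the call was kept in 1 of the 9 fits that left out a library, the one without non-irradiated M0 replicate 2 (adjusted p up to 0.14 in the others). Cd5l, a scavenger protein secreted by macrophages, went from 501, 1160.3 and 297 CPM to 1634 to 2261 CPM (log2 1.78, adjusted p = 0.0147) and lost its call without non-irradiated M0 replicate 1 (adjusted p = 0.0595). Of the 1686 calls 716 were kept in every fit that left out a library and tested the gene (285 that rose and 431 that fell). Leaving out non-irradiated M0 replicate 3 gave 856 calls and leaving out replicate 1 of the same group gave 1027.

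Core macrophage genes went in both directions, 7 of 30 higher and 3 lower (median log2 -0.02), beside 5.75% and 7.79% of all tested genes. Without the library labelled FLASH M1 replicate 1 these counts were 4 and 2. Msr1 and Vsig4 were among those that rose. Besides Csf1r, the fractalkine receptor Cx3cr1 fell (17.4 ± 4.46 to 6.44 ± 2.53 CPM, log2 -1.42). Complement C1q, an opsonin made by macrophages, was lower in chain C1qb, which fell from 1562 ± 142 to 859 ± 131 CPM (log2 -0.87), and in C1qc, which fell by 0.66 on the log2 scale.

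Calls among genes of secreted signals were mostly falls, with few rises. Over all tested genes 5.75% rose and 7.79% fell. Among 28 tested cytokines and receptors 2 rose and 7 fell, among 19 chemokine ligands 2 rose and 6 fell, and among 12 chemokine receptors, 2 of which passed the filter through the non-irradiated libraries alone, 0 rose and 5 fell. Vegfa, the vessel growth factor, went from 33.8, 53.5 and 22.9 CPM to 7.59 to 17 CPM (log2 -1.57, adjusted p = 0.00522), and Csf1, the growth factor of these cultures, fell from 60.1 ± 15.7 to 24.3 ± 7.48 CPM (log2 -1.30). Igf1 rose from 463, 541 and 532 CPM to 708 to 909 CPM (log2 0.70, adjusted p = 0.000885). Tgfbi, a matrix protein induced by TGF-beta, fell from 99.3 ± 17.9 to 32.7 ± 5.56 CPM (log2 -1.59).

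Lists with few calls in the control state included interferon-stimulated genes (0 of 39 rose, 3 fell), ribosomal proteins (0 of 30 rose, 1 fell), and mitochondrially encoded genes (1 of 13 rose, 0 fell). Over all tested genes 5.75% rose and 7.79% fell, and the calls in those lists were near these shares or below them. Of 26 cholesterol and fatty acid synthesis genes 4 rose, a larger share than over all genes, and 0 fell. The summed interferon-stimulated level was 1169 to 4356 CPM in the 3 non-irradiated libraries alone, a spread wider than that of the irradiated ones (2048 to 3311 CPM). Of 26 tested genes that LPS induces 1 rose and 4 fell, and of 23 that IL-4 induces 2 rose and 5 fell. Without the library labelled FLASH M1 replicate 1, 1 interferon-stimulated gene and 2 of the IL-4 genes fell. Nos2, the nitric oxide synthase of LPS-treated macrophages, was 1.99, 2.09 and 2.52 CPM without and 0.292 to 2.95 CPM with irradiation (log2 -0.44, adjusted p = 0.47), and Retnla, a marker of the IL-4 state, 29.6, 18.9 and 14.9 CPM and 7.46 to 33.2 CPM (log2 -0.06, adjusted p = 0.914). In both genes the groups overlapped.

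The second question is whether the FLASH and standard arms differ in this state. FLASH against non-irradiated called 1128 genes (9.06%), 451 higher (3.62%) and 677 lower (5.44%). Standard against non-irradiated called 1100 (8.84%), 453 higher (3.64%) and 647 lower (5.2%). Both comparisons use the same 3 non-irradiated libraries, so their values are given side by side. Phlda3 rose by log2 2.27 after FLASH and 2.34 after standard irradiation, Spp1 by 1.89 and 2.03, and Hmox1 by 1.06 and 1.30. H2-Aa had log2 fold changes of -5.09 and -5.14, and Mki67 of -1.38 and -1.50. Directly compared, FLASH and standard libraries gave 0 called genes in limma (0.0%), 470 at an unadjusted p under 0.05, and a smallest adjusted p of 0.741.

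Over the 1686 called genes the median half-width of the 95% interval of that difference was 0.35 on the log2 scale, and 1554 of them had a measured difference within 0.5 of 0. The interval was -0.40 to 0.15 for Cdkn1a, -0.71 to 0.81 for H2-Aa and -0.05 to 1.54 for Ltf, so differences of those sizes cannot be told from none with 3 libraries an arm. The 3 smallest p belonged to Naa35, an acetyltransferase subunit (28.5, 27.6 and 29 CPM after FLASH, 18.6, 18.4 and 18.2 CPM after standard irradiation, 28.1, 31.4 and 30.5 CPM without), Dsg2, a desmosome cadherin (9.32, 8.75 and 6.44 CPM against 2.94, 3.25 and 2.68 CPM), and Taf4a, a subunit of the general transcription factor TFIID (4.94, 5.14 and 6.53 CPM against 13.8, 12.9 and 9.7 CPM). These 3 genes were picked by their p in this same contrast, so the gap between their arms is not a further result. The adjusted p was 0.741 in each.

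**Figure D4:**
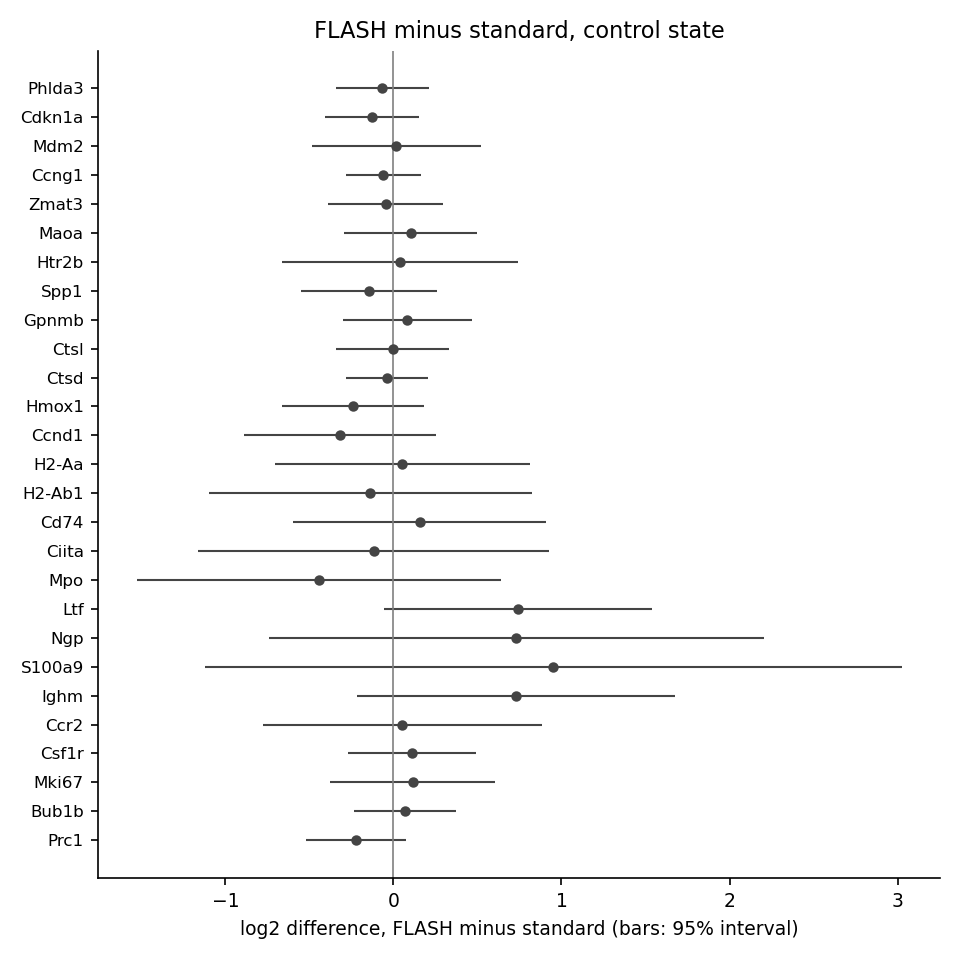
Log2 difference between the 3 FLASH and the 3 standard libraries of the control state for 27 genes; points are limma estimates and bars their 95% intervals. The bars cross 0 for all 27 genes, and they are narrow for Phlda3 and Ctsd and wide for low genes such as S100a9 and Ngp.

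Taking the groups from the labels alone gave fewer calls in the same directions. That comparison puts the library labelled FLASH M0 replicate 1 in place of the one labelled FLASH M1 replicate 1. It called 976 of 12453 genes (7.84%), 363 higher (2.91%) and 613 lower (4.92%). Of these 954 were called in the same direction by levels, or 97.7% of the 976 and 56.6% of the 1686. Of the 1686, 0 had the opposite sign. With the 5 irradiated libraries whose label and level both give control, 1340 of 12308 genes (10.9%) were called, 583 higher (4.74%) and 757 lower (6.15%), of which 1294 were shared in direction (96.6% of the 1340 and 76.7% of the 1686).

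The p53, class II and granule results kept their direction under the labels. Phlda3 rose by log2 2.28 (adjusted p = 5.02e-05), H2-Aa changed by -4.82 (0.0006) and Mpo by -5.43 (0.0006). Under the labels 7 class II genes, 7 primary granule genes, 7 B lineage genes and 22 mitosis genes fell, and 7 genes of p53 arrest rose. Without the library labelled FLASH M1 replicate 1 the counts were 7 class II, 7 primary granule, 7 B lineage and 24 mitosis genes that fell, and 8 p53 arrest genes and 15 lysosome genes that rose. Over all genes 363 rose under the labels in place of 716 by levels, and 613 fell in place of 970. Beside these, 11 lysosome genes rose in place of 17, 3 NRF2 genes in place of 9 and 2 core macrophage genes in place of 7. Of those that fell by levels, dendritic cell genes went from 8 to 4, chemokine ligands from 6 to 3, scavenging genes from 3 to 0 and IL-4-response genes from 5 to 0. Several calls were lost in genes where the library labelled FLASH M0 replicate 1 stood apart. Fcgr2b was 381 CPM in that library (adjusted p = 0.166 under the labels), Gas6 was 181 CPM there against 429.8 to 558 CPM in the 6 members (0.309), and Ccl22, a chemokine that IL-4 induces, was 15.6 CPM against 0.477 to 2.01 CPM (0.415). Ptgs1, the constitutive cyclooxygenase, was 54.1 CPM against 9.16 to 11.9 CPM (0.142), and Retnla 848 CPM against 7.46 to 33.2 CPM.

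The irradiation effect in this state was compared with the mean effect in the LPS and IL-4 states in a fit of all 27 libraries, with irradiated libraries placed by level. The difference was called for 51 of 13297 genes (0.384%), 18 higher (0.135%) and 33 lower (0.248%) in the control state, of which 34 were also called in the 9 libraries. Against the LPS state alone 666 genes differed (5.01%), 311 higher (2.34%) and 355 lower (2.67%) in the control state. Against the IL-4 state alone 46 differed (0.346%), 19 higher (0.143%) and 27 lower (0.203%). None of the tested genes of the p53 lists was among the 51. Against the LPS state alone 2 of the 21 arrest genes and 1 of the 24 death and repair genes differed, all lower in control medium. Against the IL-4 state alone 0 of either list differed. Phlda3 rose by log2 2.31 in control medium, 2.27 under LPS and 1.62 under IL-4 (adjusted p of the difference = 0.237), and Cdkn1a by 1.53, 1.43 and 1.13 (0.551).

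H2-Aa had log2 fold changes of -5.11 in control medium, -2.66 under LPS and -3.73 under IL-4 (difference from the mean of both -1.92 ± 0.38, adjusted p = 0.0292). Taken singly, it differed from the LPS state (-2.45, adjusted p = 0.00345) and not past the threshold from the IL-4 state (-1.38, 0.196). Ccr2 measured -3.16, -1.33 and -1.24 (adjusted p = 0.0301). Its mean was 40.5, 8.93 and 17.3 CPM without irradiation and 4.38, 3.34 and 7.03 CPM with it, in the same order of states. H2-Aa averaged 606, 141 and 795 CPM without and 16.9, 20.2 and 62.2 CPM with irradiation. For Ccr2, and for H2-Aa between control medium and LPS, the non-irradiated levels thus differed more than the irradiated ones. Adam8 measured log2 1.15 in control medium, 0.16 under LPS and 0.10 under IL-4 (adjusted p = 0.0174). Igf1 measured 0.70, -0.40 and 0.47 (adjusted p = 0.0116), with opposite signs in control medium and under LPS. Fcgr2b measured -1.77, -1.04 and 0.45 (adjusted p = 0.0301). Lcn2 measured -3.96, 0.42 and -1.28 (adjusted p = 0.0431). H2-Ab1 and Cd74 had differences of -1.89 and -1.68 that missed the threshold (adjusted p = 0.0513 and 0.0501). Of the 6 called genes just described, only Adam8 passed the threshold against each state singly (adjusted p = 0.0123 against LPS and 0.0363 against IL-4). Against IL-4 alone the adjusted p was 0.0585 for Ccr2, 0.515 for Igf1 and 0.225 for Lcn2, and against LPS alone it was 0.224 for Fcgr2b. These calls depend on the placing of all 27 libraries. With states by label 4 genes were called, and with the replicate number as a block 16.

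Some division genes differed in their response from the LPS state. The median log2 fold change of the mitosis list was -1.11 in control medium, 0.53 under LPS and -0.92 under IL-4, and 0 of the 26 mitosis genes were among the 51. Of the 26, 7 differed from the LPS state, all lower in control medium, such as Prc1 (difference -2.26, adjusted p = 0.0307), and 2 of the 29 replication genes did. Of the 39 lysosome genes 12 differed from the LPS state, all higher in control medium, such as Ctsd (difference 0.71, adjusted p = 0.0141), and 0 differed from the IL-4 state.

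**Figure D5:**
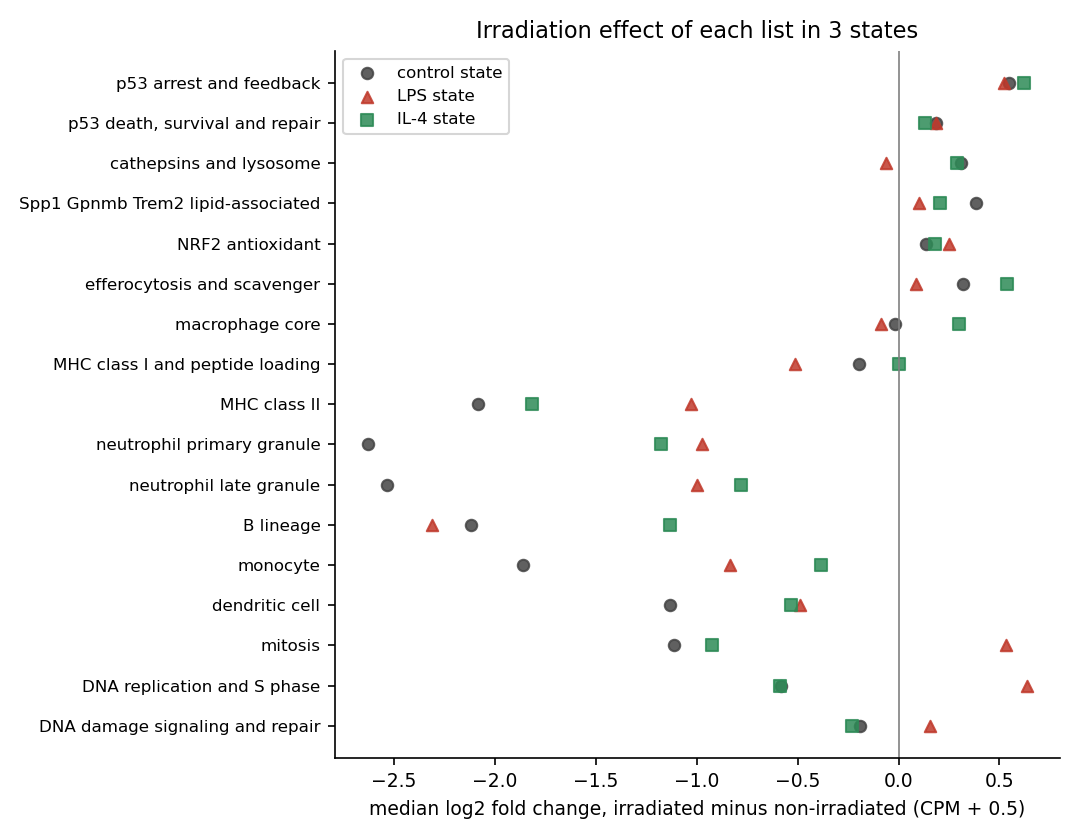
Median log2 fold change of 17 gene lists, irradiated minus non-irradiated, in the control, LPS and IL-4 states (fit of all 27 libraries, irradiated libraries placed by level). The p53 arrest genes have medians near 0.5 in the 3 states, while the mitosis and replication medians are below 0 in control medium and IL-4 and above 0 under LPS.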

How the data were processed

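RNA of 27 libraries was sequenced. The deposited table holds 19070 genes and 1 value for each library, which the authors made with kallisto 0.46.1 and edgeR 3.36.0 (R 4.0.5), per the submitters' processing notes; the notes name GRCh38 although the samples are mouse, and no file coordinate was used. The deposited values are a normalized signal, CPM scaled by TMM factors, with column sums of 929400 to 1066796 in the 9 libraries. Within a tolerance of 0.01, 96.7% to 98.2% of values were whole multiples of a read, too few for a count test, so depth is approximate and its counting error was not modelled. An entry without a symbol (0.0048% to 0.0080% of a library) was left out.

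Irradiated libraries were placed by the Irg1 and Arg1 rule and non-irradiated ones by label. log2(value + 0.5) was fitted, for genes that reached 1 CPM in 3 or more of the 9 libraries, with limma 3.58.1 (R 4.3.3, statmod 1.5.0) to 3 group means (6 residual degrees of freedom), with an intensity trend and robust moderation. The contrast was the mean of FLASH and standard minus non-irradiated, adjusted by Benjamini-Hochberg over all tested genes with a threshold of 0.05. A further fit took all 27 libraries. The script was tested on simulated data. Genes named were the 12 highest and 12 lowest called changes without overlap and a mean of at least 5 CPM, up to 4 called members a direction in each of the fixed lists, a fixed set of markers, and the 3 smallest p of FLASH against standard. A gene outside this rule is said to be so. The members and lists were chosen with earlier results of these data known. Alternatives changed the placing of libraries, the pseudocount, the filter, the scaling, the moderation, the groups fitted, the replicate block, and left out each library. Replicate correlations within groups were 0.965 to 0.983, and no libraries were identical. Of 873 list members 647 had a RefSeq promoter entry, and 5 motifs were searched on both strands in the 250 bases before each start. A gene with several starts was counted if any of them held the motif, and the printed window is one that held it. The shares over all genes are of the 27025 genes with an entry, many of which were not tested.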

Additional observations from a re-analysis of the deposited data

Results flagged for a closer look

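In 13 of the genes described, 1 of the 6 irradiated libraries stood apart from the other 5 by Dixon's test. Chance flags about 1 in 20 groups, and 109 genes were screened. Standard M0 replicate 1 was high in Ccna2 (25.2 CPM against 16.7 to 19.6), Prc1 (18.6 CPM against 13.2 to 15.1) and Ccnd1 (603 CPM against 384 to 459). Standard M0 replicate 2 was high in Plin2 (2039 CPM against 1734 to 1842) and H2-Eb1 (0.321 CPM against 0) and low in Glb1 (108 CPM against 119.9 to 126). Standard M0 replicate 3 was high in Phlda3 (182 CPM against 156 to 165) and Csf1 (38.3 CPM against 17.5 to 24.7) and low in Itgam (585 CPM against 683 to 739.7). FLASH M0 replicate 3 was high in Dram1 (58.7 CPM against 40.4 to 46.2) and low in Ptgs1 (9.16 CPM against 11.1 to 11.9). The library labelled FLASH M1 replicate 1 was high in Lcn2 (6.20 CPM against 1.73 to 3.33) and Flt3 (0.910 CPM against 0.138 to 0.401). In each gene but Itgam, where the groups overlapped, the library that stood apart lay on the same side of the 3 non-irradiated libraries as the other irradiated ones.

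The irradiation effect in control medium differed from the mean effect under LPS and IL-4, by the interaction test, in H2-Aa (-1.92 on the log2 scale), Ccr2 (-1.88), Fcgr2b (-1.48), Lcn2 (-3.53), Cp (-2.29), Igf1 (0.67) and Adam8 (1.02).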

How the results depend on the processing

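With labels alone, the number of called genes was 976 for irradiated, 618 for FLASH and 454 for standard against non-irradiated, and 4 for the difference from the other states. FLASH called 632 with the 5 libraries whose label and levels agree. With replicates 2 and 3 alone the counts were 460, 213 and 174. Leaving out 1 library gave 856 to 1664 for irradiated, 486 to 1269 for FLASH and 498 to 1104 for standard, each lowest without non-irradiated M0 replicate 3. Without replicate 1 of that group they were 1027, 679 and 668. FLASH also fell to 656 and 526 without its M0 replicates 2 and 3, and standard to 532 and 576 without its replicates 1 and 3. In a fit of all 27 libraries by label, chosen after seeing the data, 536 genes were called for labels alone. Pseudocount, filter, scaling and moderation left each count within 1.5 times, and FLASH against standard stayed at 0 under each alternative run. The fit with 2 groups gives no value for FLASH or standard alone.

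No pairing by replicate number was seen in the values. Deviations of same-numbered libraries correlated at -0.229 to -0.00125, with 0 of 9 pairs over 0.1 and 0 of 18 best matches on the own number. With 3 libraries a group these correlations cannot exclude a pairing. The replicate block gave 1503 calls for irradiated, 727 for labels alone and 16 for the difference from the other states.

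The 6 genes that were not called and changed sign were Retnla, Anxa1, Itgam, Bax, Dsg2 and Emr1. Retnla was 1.06 by labels, 0.12 with the 5 libraries, 0.34 with replicates 2 and 3, and -0.28 to 0.20 leaving out 1 library. Anxa1 was 0.10 by labels and 0.070 with replicates 2 and 3, and Itgam 0.043 by labels. Leaving out 1 library, Anxa1 ran from -0.28 to 0.059, Itgam from -0.078 to 0.070, Bax ran from -0.071 to 0.10, Dsg2 from -0.056 to 0.33 and Emr1 from -0.35 to 0.081. Of 99 called genes described, 88 kept their call with labels alone and 95 with the 5 libraries; 0 reversed. The depth limits genes near 0, whose fold changes depend on the pseudocount.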

Other observations

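Other lists also held called genes in control medium. Their counts are to be read beside the 5.75% of all tested genes that rose and the 7.79% that fell. Of 15 tested iron genes 4 rose and 2 fell: besides Tfrc and Hmox1, the heme transporter Slc48a1 rose from 556 ± 30.7 to 772 ± 60.9 CPM (log2 0.47), and the ferroxidase Cp fell from 11, 41.8 and 15.8 CPM to 1.78 to 4.99 CPM (log2 -2.42 ± 0.44, adjusted p = 0.00737). Cp measured log2 -2.42 in control medium, 0.18 under LPS and -0.44 under IL-4. Of 28 matrix and protease genes 2 rose and 5 fell. The protease inhibitor Timp2 rose (log2 0.55), and Serpinb2, an inhibitor of plasminogen activators, fell from 11, 16.6 and 6.35 CPM to 0.456 to 3.61 CPM (log2 -2.27, adjusted p = 0.00185). In the list of early response and heat shock genes 1 of 20 rose and 4 fell, with Egr1, a transcription factor induced by growth signals, going from 23.2, 30.1 and 41.3 CPM to 10.5 to 21.6 CPM (log2 -1.08, adjusted p = 0.00777). Of 28 macrophage transcription factors 4 rose and 6 fell, or 3 and 3 without the library labelled FLASH M1 replicate 1. Among them the inhibitor of differentiation Id2 rose from 105 ± 7.73 to 195 ± 38.3 CPM (log2 0.87), and Runx3, a factor of lymphoid and dendritic cells, fell from 5.05 ± 1.7 to 1.17 ± 0.654 CPM (log2 -1.79). Of 24 nuclear genes of the respiratory chain 3 rose and 0 fell, and of 26 glycolysis and hypoxia genes 1 rose and 5 fell.

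Gzmb, the cytotoxic granule protease, gave the smallest p for the difference between states and was chosen after its values were seen. It was 0.425 ± 0.246 CPM in non-irradiated and 0.549 ± 0.312 CPM in irradiated control-state libraries (SD, n = 3 and 6), and 38.7 ± 6.59 CPM against 0.426 ± 0.277 CPM in the LPS state (difference of effects from the mean of the other states 4.19 on the log2 scale).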
